A study of Mus musculus with 12 samples.

Results

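Insulin-like growth factor (IGF) ligands, receptors and binding proteins were examined in RNA-Seq data of the cortex of aged E4FAD mice. The members were the 10 genes whose mouse Ensembl identifiers carry the symbols Igf1, Igf2, Igf1r, Igf2r, Igfbp2, Igfbp3, Igfbp4, Igfbp5, Igfbp6 and Igfbp7 in the GRCm38 annotation, out of 50563 genes in the deposited count table. They were chosen by name and not by a measured value, though with earlier results of these data known. All 10 passed the filter on low counts that left 15688 genes for testing. The CTRL group held 7 mice gavaged with vehicle, of which 2 were 12 months and 5 were 14 months old. The DPAn-6 group held 5 mice gavaged daily for 3 weeks with the omega-6 fatty acid docosapentaenoic acid, of which 2 were 12 months and 3 were 14 months old. Both groups had the genotype APOE4+/+, 5FAD-/+, that is, human APOE4 in place of mouse Apoe together with the familial Alzheimer's disease transgenes, and the vehicle with its antioxidants went to both, so no mouse without the transgenes and no ungavaged mouse enters the comparison. Each library came from the cortex of 1 mouse perfused with buffer. Mice of both sexes were used, and the sex of single mice is not in the labels.

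IGF1 and IGF2 are small secreted proteins related to insulin. Both act mainly through the tyrosine kinase receptor IGF1R, which signals to the PI3K-AKT and MAPK pathways and promotes growth and survival of cells, while IGF2R binds IGF2 and carries it to lysosomes for degradation and also serves as a receptor for lysosomal enzymes tagged with mannose 6-phosphate. The binding proteins hold the ligands in the extracellular space, lengthen their life and limit or permit their access to the receptors, and proteases release the ligands again. In the adult rodent brain Igf2 is known mainly from the leptomeninges, the choroid plexus and blood vessel walls, whereas Igf1 comes from microglia and some neurons.

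Total counts per mouse lay between 15339098 and 19500154 in CTRL and between 15208803 and 26520251 in DPAn-6. No difference between the groups was detected (exact permutation test of the log10 totals, two-sided, p = 0.241). The 10 genes with most counts in a library held 4.09% to 7.31% of its counts in CTRL and 3.63% to 4.07% in DPAn-6, without overlap. The part of this library difference in the results was not tested. The cortex label was checked against marker lists, and excitatory neuron markers were high in all 12 libraries, with a summed level of 6714 to 8387 CPM (counts scaled to a common library total). Striatum markers summed to 253 to 683 CPM in CTRL and 242 to 524 CPM in DPAn-6, with 0 of 8 called. A list of 12 choroid plexus markers set 3 libraries apart, since it summed to 1782 CPM in CTRL 2, 1105 CPM in CTRL 5 and 237 CPM in CTRL 3, against 9.75 to 38.6 CPM in the other 9. CTRL 3 also stood apart for several members, as given below. Values of the members without these libraries are given beside those of all 12 where they move by more than 1.5 times or change a call.

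Igf2, which encodes the ligand IGF2 (ENSMUSG00000048583; chromosome 7, 142650766 to 142666816, minus strand, GRCm38), was the member with the largest difference between the groups. RefSeq lists 4 transcription starts for it, and the bases before each are shown because Igf2 is the called gene, with those of Igfbp4 because it is the gene whose groups did not overlap. Each line gives the 150 bases before a start, 5′ to 3′ on the gene's strand, with coordinates of GRCm38.p6.
Igf2 start 1, chr7:142666817-142666966, minus strand: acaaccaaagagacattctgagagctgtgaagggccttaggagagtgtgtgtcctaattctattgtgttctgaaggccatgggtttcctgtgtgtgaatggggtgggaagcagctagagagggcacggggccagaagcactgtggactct
Igf2 start 2, chr7:142661272-142661421, minus strand: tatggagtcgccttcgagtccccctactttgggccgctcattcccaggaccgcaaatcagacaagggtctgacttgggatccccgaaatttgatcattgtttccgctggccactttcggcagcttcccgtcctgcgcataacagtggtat
Igf2 start 3, chr7:142658805-142658954, minus strand: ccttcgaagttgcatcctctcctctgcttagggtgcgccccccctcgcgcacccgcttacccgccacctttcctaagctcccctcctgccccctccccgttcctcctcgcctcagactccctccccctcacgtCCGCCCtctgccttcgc
Igf2 start 4, chr7:142657497-142657646, minus strand: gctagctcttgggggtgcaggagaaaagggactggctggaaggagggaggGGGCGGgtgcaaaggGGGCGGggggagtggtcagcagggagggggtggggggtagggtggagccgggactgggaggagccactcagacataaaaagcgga
Igfbp4 start, chr11:99041094-99041243, plus strand: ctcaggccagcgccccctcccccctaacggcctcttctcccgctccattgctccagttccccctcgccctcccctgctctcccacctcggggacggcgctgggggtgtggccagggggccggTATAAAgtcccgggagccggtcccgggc
Capitals mark matches on either strand to 5 short motifs, namely the TATA box TATAAA, the CCAAT box CCAAT, the GC box GGGCGG, the E-box CACGTG and the FOXO site GTAAACA. Over 250 bases before each start, the windows of Igf2 starts 1 and 2 held none of these motifs, that of start 3 held 1 GC box and that of start 4 held 2 GC boxes and 1 CCAAT box. The Igfbp4 window held 1 TATA box. Among all 32851 RefSeq promoter windows of this length, 12.4% held the TATA box, 33.8% the CCAAT box, 32.7% the GC box, 6.0% the E-box and 3.2% the FOXO site. GC content in the 4 Igf2 windows was 50.8%, 47.6%, 68.8% and 66.0% in the order of the starts, against a median of 52.4% over all windows. A motif match is a description of the letters only, and counts summed per gene do not tell which start was used.

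Levels between members were compared as CPM per kilobase of annotated exon. Igfbp5 had the highest level, at 71.0 ± 9.20 CPM per kilobase (SD, n = 12), followed by Igfbp6 at 36.2 ± 4.86 (SD, n = 12), and each lay above the next member in 12 of 12 mice. Igfbp7 at 20.2 ± 2.68, Igfbp4 at 20.2 ± 3.57 and Igfbp2 at 19.9 ± 4.75 CPM per kilobase (SD, n = 12) did not differ beyond their spread, with Igfbp7 above Igfbp4 in 5 of 12 mice and Igfbp4 above Igfbp2 in 7 of 12. Igf2 followed at 15.7 ± 7.28 (SD, n = 12), with the largest SD relative to its mean among the 10 members, and lay below Igfbp2 in 10 of 12 mice. The receptors Igf1r at 9.78 ± 1.03 and Igf2r at 6.02 ± 0.571 CPM per kilobase were next, with Igf1r above Igf2r and Igf2r above Igfbp3 in 12 of 12 mice. Igfbp3 at 3.01 ± 0.290 and Igf1 at 1.62 ± 0.641 CPM per kilobase (SD, n = 12) were lowest, and Igfbp3 lay above Igf1 in 11 of 12 mice, CTRL 3 being the exception. Over all 12 mice, the mean levels of the binding proteins other than Igfbp3 were above those of both receptors and both ligands on this scale. In CTRL alone the mean of Igf2 was 19.8, above Igfbp4 at 18.3 and near Igfbp7 at 20.1 and Igfbp2 at 20.9. In DPAn-6 it was 9.96 CPM per kilobase.

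**Figure D1:**
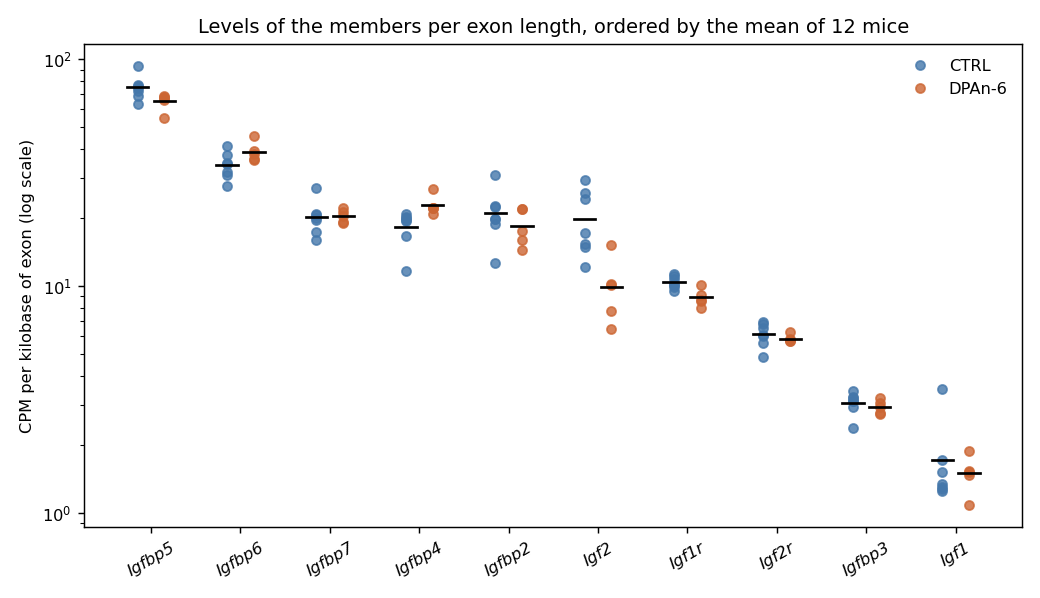
Level of each member in CPM per kilobase of exon (log axis), ordered by the mean of the 12 mice, with 1 point per mouse (blue CTRL, n = 7; orange DPAn-6, n = 5) and a bar at each group mean. Igfbp5 and Igfbp6 lie above the other members, Igf2 has the widest gap between its group means, and the highest Igf1 point is CTRL 3.

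Of the 10 members, 1 passed an adjusted p of 0.05 in the comparison of DPAn-6 with CTRL by edgeR's quasi-likelihood test, and it was lower in DPAn-6 mice. Over all 15688 genes tested, 1.55% passed, with 1.14% lower and 0.408% higher. At an unadjusted p below 0.05, 3 members were lower (Igf2, Igf1r and Igfbp5) and 1 was higher (Igfbp4), where 9.02% of all genes were lower and 5.51% higher. The log2 fold change was below 0 for 8 of 10 members, against 51.3% of all genes, and its median was −0.15 against −0.0047 over all genes. Igfbp4 was the 1 member that had no overlap between the groups, with every DPAn-6 mouse above every CTRL mouse, as did 1.73% of all genes, and 0 members lay wholly below, as did 1.49%. In bulk tissue fewer cells of a type and less RNA per cell cannot be told apart.

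**Figure D2:**
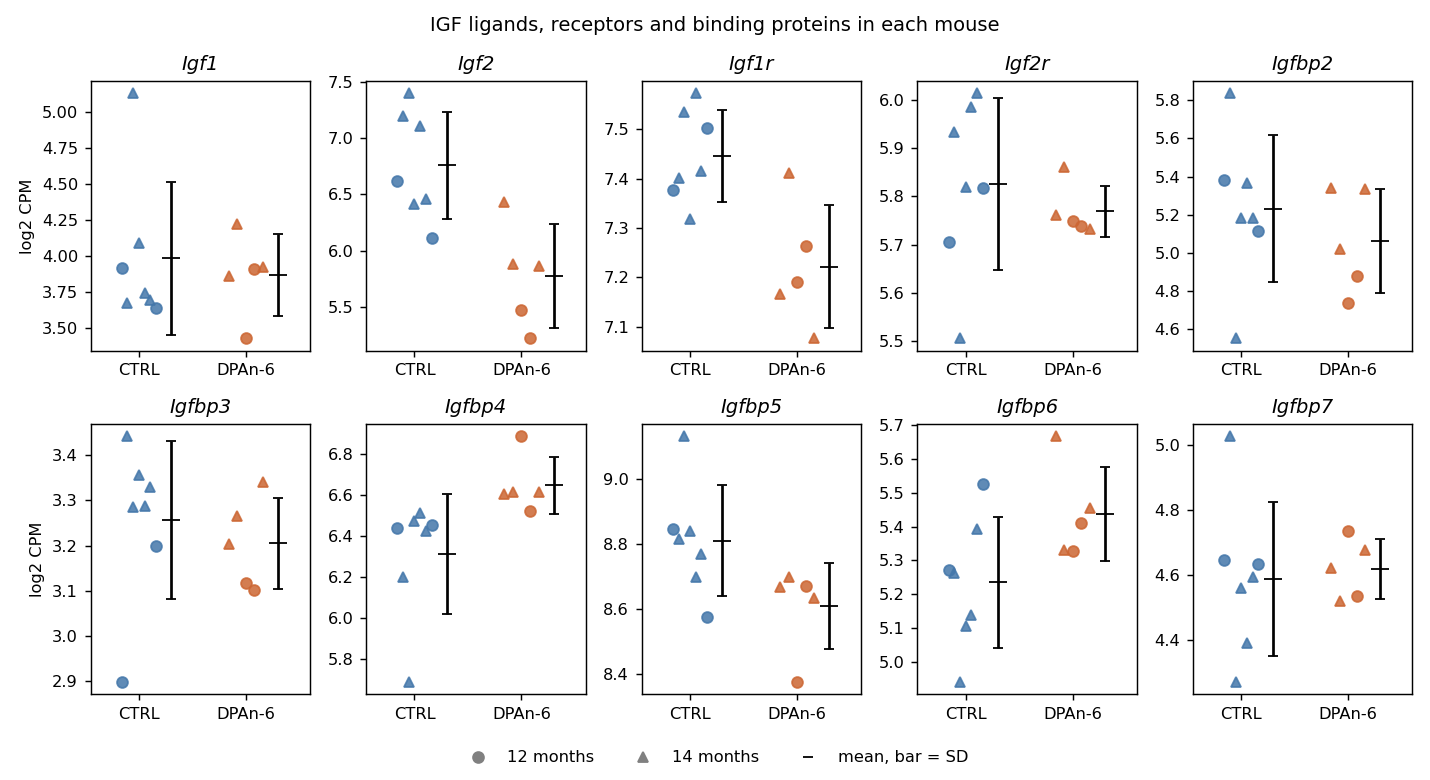
Log2 CPM of each member in each mouse (1 point per mouse; circles 12 months, triangles 14 months), with the mean and SD of the 7 CTRL and 5 DPAn-6 mice beside the points. For Igf2, 4 of 5 DPAn-6 mice lie below every CTRL mouse, and for Igfbp4 all 5 lie above every CTRL mouse.

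Among the ligands, Igf2 mRNA fell in DPAn-6 mice. In CTRL its level ran from 6.11 to 7.40 log2 CPM with a median of 6.62, and the DPAn-6 mice 1 to 5 had 6.43, 5.88, 5.47, 5.22 and 5.86 log2 CPM. The 3 highest values were those of CTRL 3, 2 and 5, the lowest belonged to DPAn-6 4 and 3, and DPAn-6 1 alone of its group lay within the CTRL range. The mean was 113 ± 37.4 CPM in CTRL (SD, n = 7) and 57.0 ± 18.9 CPM in DPAn-6 (SD, n = 5). On the log2 scale Igf2 fell by 1.02 (standard error 0.24, 95% interval −1.54 to −0.51), with an adjusted p of 0.0484 by edgeR, and the exact permutation p of the log2 CPM was 0.00758. As a fold, DPAn-6 mice had 0.493 of the CTRL level (95% interval 0.345 to 0.704), and 5 of 5 lay below the CTRL mean. The adjusted p lay close to the threshold and depended on single mice. By edgeR it was 0.0730, 0.0920, 0.0586, 0.0977 and 0.0564 without CTRL 1, 2, 4, 5 or 6, and 0.107, 0.165, 0.150 and 0.115 without DPAn-6 2, 3, 4 or 5, while it was 0.0182, 0.0312 and 0.0375 without CTRL 3, CTRL 7 or DPAn-6 1. In all 12 of these fits the log2 fold change stayed between −1.21 and −0.89. Without CTRL 2, 3 and 5 together, a choice made after the data were seen, it was −0.60 (standard error 0.18, edgeR adjusted p = 0.0811, exact permutation p = 0.0476). In the 14-month mice only, it was −0.91 (adjusted p = 0.309 by edgeR). The annotation places Gm49394 on the same strand over 62.8% of the exon length of Igf2, and Gm49394 has no row of its own in the count table, so the Igf2 counts may include reads of Gm49394. The antisense gene Igf2os shared 1.7% of that length and had 0 to 11 counts per mouse.

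Markers of the tissues in which Igf2 is known were counted beside it. All 14 leptomeningeal fibroblast markers had a log2 fold change below 0 (median −0.82), 6 of them passed an adjusted p of 0.05 by edgeR, and none was at 0 in any library. The list summed to 98.7 to 144 CPM in CTRL (median 134) and 52.4 to 107 CPM in DPAn-6 (median 71.8). Fmod, which encodes the collagen-binding fibromodulin, fell by 0.80 in log2 (standard error 0.18, edgeR adjusted p = 0.0412), and the collagen gene Col1a2 fell by 0.69 on that scale (standard error 0.13, edgeR adjusted p = 0.0170). Without CTRL 2, 3 and 5, 8 of the 14 leptomeningeal markers passed, 0 of 5 choroid plexus markers tested and 3 of 9 mural cell markers. Of the 12 choroid plexus markers 7 were tested, all 7 with a log2 fold change below 0 and an unadjusted p below 0.05 and none with an adjusted p below 0.05 by edgeR. The list summed to 15.9 to 1782 CPM in CTRL and 9.75 to 26.9 CPM in DPAn-6, and Otx2, Slc4a5 and Kcne2 were at 0 in some libraries. Its most abundant gene was Ttr, the thyroid hormone carrier of the choroid plexus, with a log2 fold change of −6.01 (standard error 1.46, edgeR adjusted p = 0.0553), followed by Kl at −2.71 (standard error 0.82, adjusted p = 0.121). The 9 mural cell markers summed to 332 to 381 CPM in CTRL and 290 to 308 CPM in DPAn-6, with no overlap, and 1 of 9 passed an adjusted p of 0.05. The most abundant of them were Rgs5, at −0.20 (standard error 0.14, adjusted p = 0.555 by edgeR), and Vtn, at −0.10 (standard error 0.12, adjusted p = 0.789). Endothelial markers, in contrast, summed to 361 to 406 CPM in CTRL and 342 to 391 CPM in DPAn-6, and 0 of 11 passed.

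Within the groups, Igf2 also varied with these lists. On log2 CPM centred on each group mean, Pearson's r of Igf2 with the list mean over the 12 mice was 0.66 for leptomeningeal fibroblasts, 0.71 for choroid plexus and 0.44 for mural cells. Without CTRL 2, 3 and 5 the values over 9 mice were 0.85, 0.34 and 0.88. These are descriptions, since the points share the library, its depth and its composition. When the mean of the leptomeningeal list was added to the edgeR fit as a covariate, the log2 fold change of Igf2 was −0.14 (standard error 0.35, adjusted p = 1.00), and with Ttr as covariate it was −0.44 (standard error 0.25, adjusted p = 0.927). The part of meningeal, choroid plexus or vessel wall tissue in the Igf2 difference was not tested beyond these fits, in which 0 and 17 of all genes passed. The first of the 2 fits had 487 genes at an unadjusted p below 0.05. Its covariate ran from 2.245 to 2.816 log2 CPM in CTRL and from 1.368 to 2.300 in DPAn-6. As this list mean nearly separated the groups, that fit cannot tell list and group apart. The genes most like Igf2 within the groups, among 10596 genes compared over 12 mice, were Bmp7 (r = 0.90), Ube2q1 (r = 0.89) and Slc13a4 (r = 0.87), of which Slc13a4 is on the leptomeningeal list. Bmp7 encodes a secreted bone morphogenetic protein, Ube2q1 a ubiquitin-conjugating enzyme and Slc13a4 a sulfate transporter. Slc13a4 fell by 1.30 in log2 (standard error 0.26, edgeR adjusted p = 0.0222), Bmp7 had a log2 fold change of −0.34 (standard error 0.13, adjusted p = 0.225) and Ube2q1 one of 0.02 (standard error 0.06, adjusted p = 0.915).

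**Figure D3:**
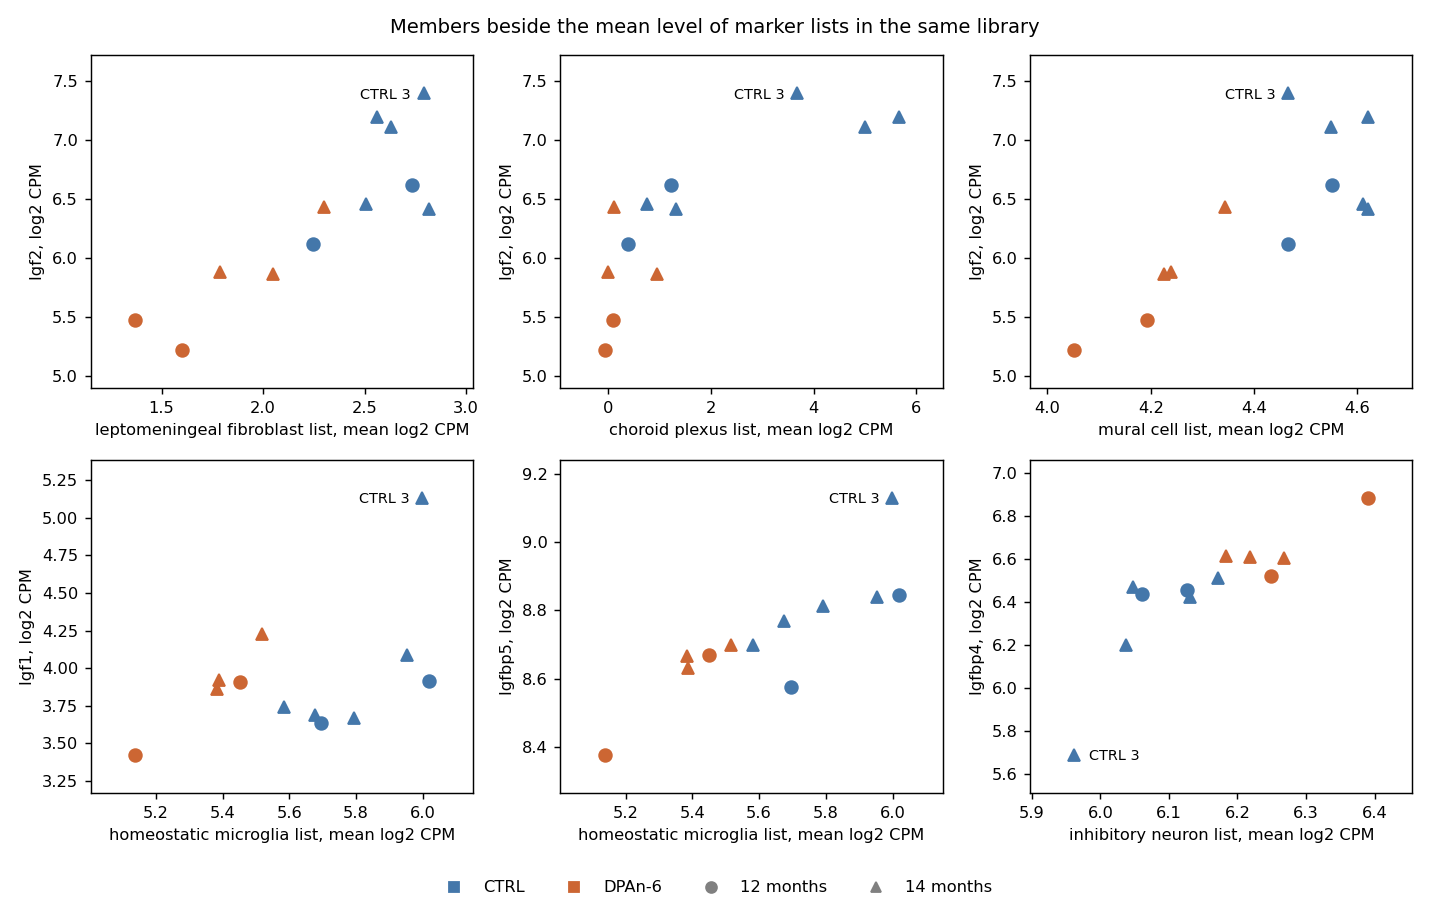
Log2 CPM of a member against the mean log2 CPM of a marker list in the same library, 1 point per mouse (blue CTRL, orange DPAn-6; circles 12 months, triangles 14 months), with CTRL 3 named. Igf2 is plotted against the leptomeningeal, choroid plexus and mural cell lists, Igf1 and Igfbp5 against homeostatic microglia, and Igfbp4 against inhibitory neurons; CTRL 2, 3 and 5 are the 3 points at the right of the choroid plexus panel.

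Igf1, the ligand made by microglia and neurons (ENSMUSG00000020053; chromosome 10, 87858265 to 87937042, plus strand), had no called difference, and 1 CTRL mouse set its direction. The CTRL values ran from 3.64 to 5.13 log2 CPM with a median of 3.74, and the DPAn-6 mice had 3.86, 4.22, 3.42, 3.91 and 3.92 log2 CPM. CTRL 3 was the highest by far, with 537 counts, and the other 6 CTRL mice lay between 3.64 and 4.09. A log2 fold change of −0.22 was fitted (standard error 0.25, 95% interval −0.75 to 0.31, edgeR adjusted p = 0.761), and without CTRL 3 it was 0.07 (adjusted p = 0.759) and without CTRL 2, 3 and 5 it was 0.03. The level of Igf1 varied with that of homeostatic microglia markers within the groups, with r = 0.70 over 12 mice and 0.83 without CTRL 3. It was not the only such list. Disease-associated microglia markers had r = 0.19, and 0.85 without CTRL 3, and thalamus markers 0.86 and 0.29. Inhibitory neuron markers varied against Igf1, at −0.76 and −0.73. The homeostatic microglia list summed to 793 to 1102 CPM in CTRL and 588 to 765 CPM in DPAn-6, without overlap, and 3 of 10 markers passed with all 10 below 0. Among its most abundant genes, Csf1r, the receptor on which microglia depend, fell by 0.50 in log2 (standard error 0.10, edgeR adjusted p = 0.0282). The genes most like Igf1 within the groups were Ccar1, Lair1 and Tex9, at r = 0.97, 0.97 and 0.96, which without CTRL 3 were 0.89, 0.91 and 0.82. Lair1 encodes an inhibitory receptor of immune cells and Ccar1 a regulator of the cell cycle and apoptosis.

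Neither receptor passed the adjusted threshold. Igf1r, the signalling receptor (ENSMUSG00000005533; chromosome 7, 67952827 to 68233668, plus strand), was between 7.32 and 7.57 log2 CPM in CTRL, with a median of 7.42, and 7.17, 7.41, 7.19, 7.26 and 7.08 log2 CPM in the DPAn-6 mice. Apart from DPAn-6 2, each DPAn-6 mouse lay below every CTRL mouse. The fitted log2 fold change of −0.25 (standard error 0.07, 95% interval −0.40 to −0.09) did not pass over all genes by edgeR (unadjusted p = 0.00378, adjusted p = 0.106). By the exact permutation test its p was 0.00884, and without CTRL 3 the edgeR adjusted p was 0.0458. Igf1r had an unadjusted p below 0.05 in 24 of 24 alternative fits, but these reuse the same mice and are not independent. In the reported fit, 14.5% of all genes had an unadjusted p below 0.05 in either direction. The spread of Igf1r between mice was small, with an SD of 0.09 log2 CPM in CTRL and 0.13 in DPAn-6. Its nearest genes within the groups were Gpr26, an orphan receptor gene (r = 0.88), Ankrd52 (r = 0.83) and the kinase gene Mast4 (r = 0.83). Igf2r, the clearance receptor (ENSMUSG00000023830; chromosome 17, 12682406 to 12769664, minus strand), was between 5.50 and 6.01 log2 CPM in CTRL, with a median of 5.82, and 5.73 to 5.86 log2 CPM in the DPAn-6 group. The fitted difference on the log2 scale was −0.09 (standard error 0.08, 95% interval −0.26 to 0.08, edgeR adjusted p = 0.686). Cnnm3, Ercc2 and Gfm2 were nearest to it, each with r = 0.94, and 0.89, 0.84 and 0.84 without CTRL 3. The log2 ratio of Igf1r to Igf2r counts within a library was 1.40 to 2.03 in CTRL and 1.34 to 1.55 in DPAn-6, so the ratios overlapped.

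**Figure D4:**
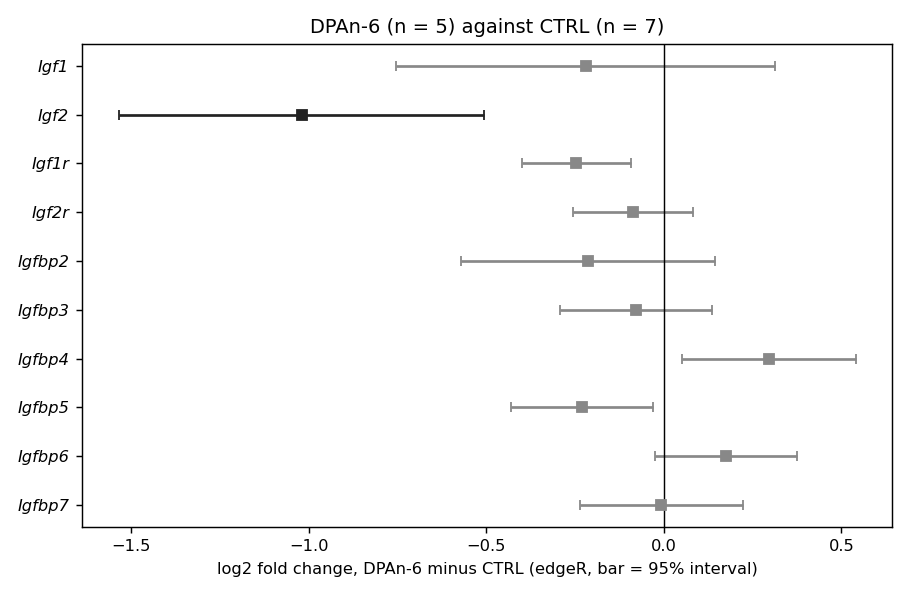
Log2 fold change of each member, DPAn-6 minus CTRL, from edgeR with its 95% interval (black, adjusted p below 0.05; grey, above). The interval excludes 0 for Igf2, Igf1r and Igfbp5 on the lower side and Igfbp4 on the higher side, and it is widest for Igf1 and Igf2.

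Of the binding proteins, Igfbp4 and Igfbp5 had log2 fold changes of opposite sign, neither of which passed the adjusted threshold. Igfbp4, which restrains IGF action until the protease PAPP-A cleaves it (ENSMUSG00000017493; chromosome 11, 99041244 to 99054392, plus strand), was between 5.69 and 6.51 log2 CPM in CTRL, with a median of 6.44, and 6.61, 6.61, 6.88, 6.52 and 6.61 log2 CPM in the DPAn-6 mice. The groups did not overlap, but the lowest DPAn-6 mouse (6.52) and the highest CTRL mouse (6.51) were almost level, CTRL 3 was the lowest and DPAn-6 3 the highest. Its log2 fold change of 0.30 (standard error 0.11, 95% interval 0.05 to 0.54) had an unadjusted p of 0.0208 and an adjusted p of 0.237 by edgeR and an exact permutation p of 0.0101. Without CTRL 2, 3 and 5 it was 0.19 (standard error 0.07), with Ttr as covariate 0.21 (standard error 0.15) and with the leptomeningeal list mean 0.09 (standard error 0.20). As this list mean nearly separated the groups, the last fit cannot tell list and group apart. Inhibitory neuron markers varied with Igfbp4 within the groups (r = 0.76 over 12 mice, 0.73 without CTRL 3). Astrocyte markers varied against it (r = −0.69, and −0.72 without CTRL 3), as did thalamus markers (r = −0.90, and −0.46 without CTRL 3). The inhibitory neuron list summed to 875 to 1064 CPM in CTRL and 1104 to 1249 CPM in DPAn-6, with 0 of 10 called. Of these 10, 8 had a log2 fold change above 0 and 2 below. At an unadjusted p below 0.05, 3 were higher and 1 lower, where 5.51% of all genes were higher and 9.02% lower. The most abundant of the 10 were Gad1, a GABA-synthesising enzyme gene (log2 fold change 0.19, standard error 0.09, edgeR adjusted p = 0.366), and Cck, a neuropeptide gene (0.32, standard error 0.09, adjusted p = 0.0830). The part of any of these lists in the Igfbp4 difference was not tested. Among the genes nearest to Igfbp4 were Vps8 and Lgi3, at r = 0.96 and 0.96, and 0.84 and 0.83 without CTRL 3.

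Igfbp5, the most abundant member and a binding protein that attaches to extracellular matrix (ENSMUSG00000026185; chromosome 1, 72857932 to 72874884, minus strand), was between 8.57 and 9.13 log2 CPM in CTRL, with a median of 8.81, and 8.67, 8.70, 8.38, 8.67 and 8.63 log2 CPM in the DPAn-6 mice. The groups overlapped, CTRL 3 was the highest mouse and DPAn-6 3 the lowest. Its log2 fold change of −0.23 (standard error 0.09, 95% interval −0.43 to −0.03) had an unadjusted p of 0.0261 and an adjusted p of 0.262 by edgeR and an exact permutation p of 0.0404, which was 0.119 without CTRL 2, 3 and 5. With the leptomeningeal list mean as covariate the direction turned, to 0.06 (standard error 0.16). That list mean nearly separated the groups, so this fit cannot tell list and group apart. Within the groups Igfbp5 varied with that list (r = 0.64 over 12 mice, 0.70 without CTRL 3). It also varied with homeostatic microglia markers (r = 0.80 over 12 mice, 0.81 without CTRL 3) and against inhibitory neuron markers (r = −0.85, and −0.80 without CTRL 3). Igfbp4 and Igfbp5 varied against each other (r = −0.84, and −0.67 without CTRL 3), and Igf1 varied with Igfbp5 (r = 0.89, and 0.80 without CTRL 3). The log2 ratio of Igfbp4 to Igfbp5 counts was −3.44 to −2.12 in CTRL and −2.15 to −1.49 in DPAn-6. Nearest to Igfbp5 were the cystine transporter gene Slc7a11 (r = 0.96), the adhesion molecule gene Vcam1 (r = 0.95) and the matrix protein gene Efemp1 (r = 0.94).

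The other binding proteins had no called difference. Igfbp6, which prefers IGF2 as its ligand (ENSMUSG00000023046; chromosome 15, 102144362 to 102149511, plus strand), was between 4.94 and 5.52 log2 CPM in CTRL, with a median of 5.26, and between 5.33 and 5.67 in DPAn-6, where 5 of 5 mice lay above the CTRL mean. Its log2 fold change was 0.17 (standard error 0.09, 95% interval −0.02 to 0.37, edgeR adjusted p = 0.421, exact permutation p = 0.0745), and without CTRL 2, 3 and 5 it was 0.09 (standard error 0.09). Igfbp2, a binding protein of the fetal and adult brain (ENSMUSG00000039323; chromosome 1, 72824503 to 72852474, plus strand), was between 4.55 and 5.84 log2 CPM in CTRL and between 4.74 and 5.34 in DPAn-6, with a log2 fold change of −0.21 (standard error 0.17, 95% interval −0.57 to 0.14, edgeR adjusted p = 0.627). It lies next to Igfbp5 on chromosome 1, on the opposite strand, and their exons do not overlap. Igfbp3, the main carrier of IGFs in blood (ENSMUSG00000020427; chromosome 11, 7206086 to 7213923, minus strand), had the fewest counts, 127 to 268 per mouse, and a log2 fold change of −0.08 (standard error 0.10, 95% interval −0.29 to 0.13, edgeR adjusted p = 0.790), which was −0.01 (standard error 0.11) without CTRL 2, 3 and 5. Igfbp7, a low-affinity member found in vessels (ENSMUSG00000036256; chromosome 5, 77349240 to 77408041, minus strand), had a log2 fold change of −0.01 (standard error 0.11, 95% interval −0.24 to 0.22, edgeR adjusted p = 0.987). Igfbp7 shares 7.0% of its exon length with Polr2b on the opposite strand, and reads there cannot be assigned without knowing which strand was counted. In CTRL 3, the levels of Igfbp2, Igfbp4, Igfbp6, Igfbp7 and Igf2r were the lowest of the 12 mice, while those of Igf1, Igf2 and Igfbp5 were the highest. Nearest within the groups were Vps52, Cox5b and Shisa4 to Igfbp6 (r = 0.95, 0.94 and 0.94), Srf, Nsun5 and Colgalt1 to Igfbp2 (r = 0.95, 0.95 and 0.94), Pvr, Col11a1 and Invs to Igfbp3 (r = 0.87, 0.80 and 0.79), and Natd1, CT010467.1 and Zfp692 to Igfbp7 (r = 0.93, 0.91 and 0.90).

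Age was compared in the same mice with group in the fit. The Igf2 level was higher at 14 than at 12 months by 0.65 on the log2 scale (standard error 0.20, unadjusted p = 0.00547 by edgeR), as was that of Igfbp3 by 0.23 (standard error 0.09, unadjusted p = 0.0267). The adjusted p was 1 for both, and 0% of all genes passed an adjusted p of 0.05 by edgeR, with 1.78% at an unadjusted p below 0.05. The other 8 members had an unadjusted p of at least 0.164. CTRL 2, 3 and 5, which hold the 3 highest Igf2 values, were all 14 months old, and the leptomeningeal list summed to 71.8 to 107 CPM in the 14-month and to 52.4 and 60.8 CPM in the 12-month DPAn-6 mice. Their part in the age difference of Igf2 was not tested. In DPAn-6 the 12-month mice 3 and 4 had 2.07 and 1.48 log2 CPM of Xist, the X-inactivation transcript of female cells, and the 14-month mice had 9.15 to 9.60, so age and sex cannot be told apart in that group. The 12-month CTRL mice 1 and 7 had 9.65 and 9.42, so at 12 months group and sex cannot be told apart either. In the 14-month CTRL mice Xist ran from 0.46 to 10.6 log2 CPM. The difference between groups did not depend detectably on age for any member, but this comparison cannot separate age from sex. For Igf2 it was −1.04 (standard error 0.33) at 12 months and −0.92 (standard error 0.24) at 14 months, and the interaction had an unadjusted p of 0.776 by edgeR. The smallest interaction p was that of Igfbp6, with −0.04 (standard error 0.16) at 12 months and 0.28 (standard error 0.11) at 14 months (unadjusted p = 0.119), while 4.26% of all genes had an interaction p below 0.05 and 0.00637% an adjusted one.

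The rest of the IGF system was read from 6 lists. Of 11 other members of the insulin and IGF family 1 passed the filter, Igf2bp2, an RNA-binding protein named for Igf2 mRNA, with a log2 fold change of 0.06 (standard error 0.30, edgeR adjusted p = 0.957). Igfbp1 had 0 to 1 counts per mouse, Igfals, the acid-labile partner of IGFBP3 in blood, 0 to 3, and the insulin gene Ins2 0 to 1, and Ins1 was at 0 in all 12 libraries. Of 16 tested genes for proteases and other regulators of IGF availability 1 was called lower and 0 higher, with 4 lower at an unadjusted p below 0.05 and a median log2 fold change of −0.16. Over all genes, 1.14% were called lower, and 9.02% were lower at that unadjusted p. The called gene was Timp3, an inhibitor of matrix metalloproteases, which had 129 to 175 CPM in CTRL and 100 to 122 CPM in DPAn-6. Its groups did not overlap, where 1.49% of all genes lay wholly lower in DPAn-6. On the log2 scale Timp3 fell by 0.45 (standard error 0.09, edgeR adjusted p = 0.0282), but without CTRL 5 or any 1 of the 5 DPAn-6 mice the adjusted p was between 0.0545 and 0.112. Pappa, the protease of Igfbp4, had 4 to 15 counts per mouse and was not tested.

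Downstream of the receptors, 53 signalling genes were tested, of which 2 were called lower and 1 higher with a median log2 fold change of −0.04. Over all genes, 1.14% were called lower and 0.408% higher. Shc3, a neuronal adaptor between tyrosine kinase receptors and MAPK signalling, had 60.8 to 73.8 CPM in CTRL and 42.8 to 51.7 CPM in DPAn-6. In log2 it fell by 0.52 (standard error 0.07, edgeR adjusted p = 0.00302). It was called in 12 of 12 fits that left out a mouse, with an adjusted p of at most 0.0156. It was not called with Ttr (0.0819) or the leptomeningeal list mean (1.00) as covariate or in the 14-month mice only (0.193). Its log2 fold change there was −0.49, −0.52 and −0.46. Those fits called 17, 0 and 9 genes in all, so a missing call in them does not single out a gene. Inpp5d, which encodes the phosphatase SHIP1 of microglia and other immune cells, had 36.3 to 52.8 CPM in CTRL and 26.9 to 35.3 CPM in DPAn-6 and fell by 0.47 (standard error 0.11, edgeR adjusted p = 0.0484). Rheb, the small GTPase that activates mTORC1, had 63.0 to 84.0 CPM in CTRL and 86.0 to 93.4 CPM in DPAn-6 and rose by 0.28 on the log2 scale (standard error 0.07, edgeR adjusted p = 0.0466). The groups did not overlap for any of the 3, which were named for their low p. Of all genes, 1.49% lay wholly lower in DPAn-6 and 1.73% wholly higher. Both calls near the threshold depended on single mice, since among the fits that left out 1 mouse that of Inpp5d was kept without CTRL 3 or 5 and that of Rheb without CTRL 3 or 4, and without any other mouse the adjusted p was above the threshold, at up to 0.168 and 0.154. With all 3 choroid plexus-rich libraries left out, the 4 named genes of these lists had edgeR adjusted p values of 0.0141 for Timp3, 0.00153 for Shc3, 0.0177 for Inpp5d and 0.0403 for Rheb, but the log2 fold change of Timp3 was then −0.30. Timp3 was not called with Ttr as covariate (−0.25, edgeR adjusted p = 0.646), with the leptomeningeal list mean (−0.26, 1.00) or in the 14-month mice only (−0.42, 0.376). Inpp5d and Rheb kept their calls in 6 and 8 of 24 alternatives. Neither was called with Ttr (edgeR adjusted p = 0.352 and 0.737), with the leptomeningeal list mean or with age (0.0705 and 0.0770). The same held with the replicate block (0.0937 and 0.198) and in the 14-month mice only (0.572 and 0.460), where Inpp5d was at −0.25. The log2 fold change of Inpp5d was −0.50 with Ttr and −0.34 with the leptomeningeal list mean, and that of Rheb 0.18 and 0.31. As that list mean nearly separated the groups, fits with it cannot tell list and group apart.

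The growth hormone axis, the imprinted gene network and the mannose 6-phosphate pathway had no called gene in the edgeR test. Of 10 tested genes of the growth hormone axis, 1 was higher at an unadjusted p below 0.05, the somatostatin receptor gene Sstr2, at 0.28 (standard error 0.09, edgeR adjusted p = 0.131). Over all genes, 5.51% were higher at that unadjusted p. Prlr, the prolactin receptor gene, had a log2 fold change of −1.55 (standard error 0.75, adjusted p = 0.360). Of 13 tested genes of the imprinted network, to which Igf2 belongs, 3 were lower at an unadjusted p below 0.05, with a median log2 fold change of −0.17. Over all genes, 9.02% were lower at that unadjusted p. Cdkn1c, an imprinted inhibitor of the cell cycle, had 9.17 to 13.3 CPM in CTRL and 6.12 to 9.13 CPM in DPAn-6, without overlap, and a log2 fold change of −0.56 (standard error 0.14, edgeR adjusted p = 0.0589). Slc38a4, an amino acid transporter gene, was at −0.79 (standard error 0.32, adjusted p = 0.259). H19, the imprinted neighbour of Igf2, had 0 to 6 counts per mouse and could not be compared. Of 12 genes of mannose 6-phosphate tagging and sorting 0 were called and 0 had an unadjusted p below 0.05, with a median log2 fold change of 0.02. Those with the lowest p were M6pr, the partner receptor of Igf2r, at 0.09 (standard error 0.06, edgeR adjusted p = 0.524), and Nagpa at −0.12 (standard error 0.12, adjusted p = 0.730).

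**Figure D5:**
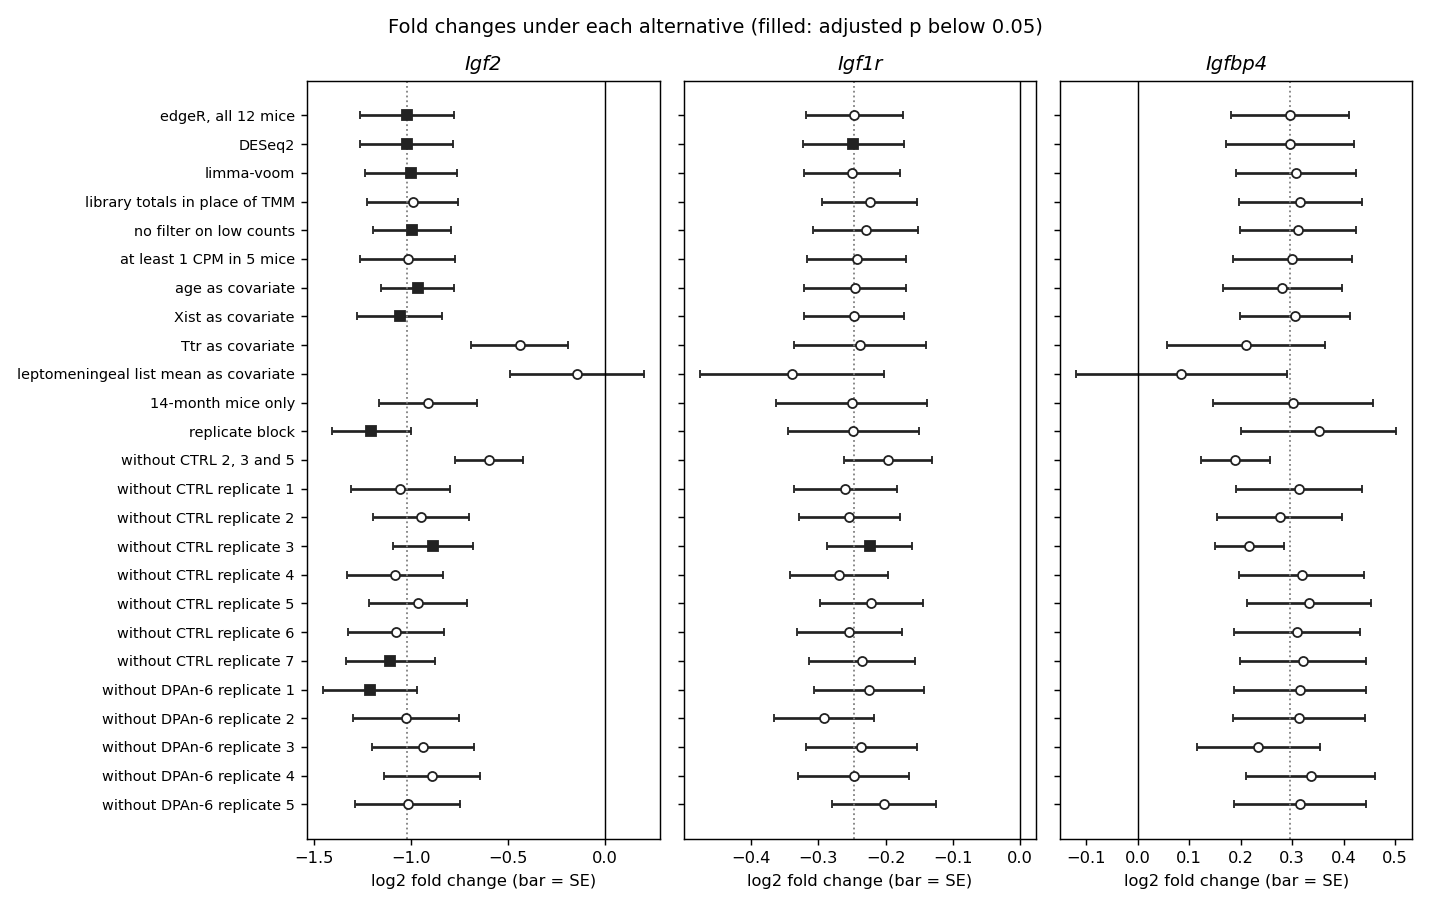
Log2 fold change of Igf2, Igf1r and Igfbp4, DPAn-6 minus CTRL, in the reported fit and in 24 alternatives, with standard errors as bars (filled squares, adjusted p below 0.05; open circles, above). The dotted line marks the reported value; Igf2 lies nearest to 0 with the leptomeningeal list mean or Ttr as covariate and without CTRL 2, 3 and 5, and every value of Igf1r is below 0.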

How the data were processed

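RNA-Seq libraries came from the cortex of 12 E4FAD mice, 7 CTRL and 5 DPAn-6, with 1 library per mouse. Per the labels and the study's methods, the authors selected poly(A) RNA with the KAPA mRNA kit, aligned reads to GRCm38 (mm10) with STAR 2.5.3a and deposited raw, unnormalized counts per gene. Which strand was counted is not stated in the labels or methods.

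Log2 CPM was computed here from those counts, adding 0.5 to each and dividing by the library's total. Exon lengths and positions are from GENCODE M21, which matched 50339 of 50563 gene identifiers. All genes were tested in 1 fit with edgeR 4.0.16 in R 4.3.3 (TMM, filterByExpr by group, quasi-likelihood test without covariates) and adjusted by Benjamini-Hochberg over 15688 genes, and standard errors and 95% intervals come from it. An exact test permuted the mean log2 CPM of each member over all 792 splits of the mice, with 0.00126 as its smallest p. Both tests were tried on simulated data. Any pair of libraries differed in at least 75.9% of genes with a count.

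The members and lists were chosen with earlier results of these data known. Named are the 10 members, the genes of a pathway list with an adjusted p below 0.05 or otherwise the 2 of lowest p, the 2 most abundant genes of a marker list set beside a member, and the 3 genes most like each member (Pearson's r of log2 CPM centred on group means, among genes with a mean of at least 3). Some genes that this rule names are not reported here. Chosen after their values were seen, mostly for low counts, were H19, Pappa, Igfbp1, Igfals, Ins1, Ins2, Igf2os, Otx2, Slc4a5 and Kcne2. RefSeq held 14 promoter windows for the 10 members. The alternatives were DESeq2 1.42.0, limma-voom (limma 3.58.1, which the study used), no TMM, other filters on low counts, covariates (age, Xist, Ttr or the leptomeningeal list mean), the 14-month mice alone, a block for replicate number, and omission of each mouse. Omitting CTRL 2, 3 and 5 together and the alternatives of the permutation test and of pathway genes were added after the data were seen. Python 3.11.15, numpy 2.4.6 and pandas 2.3.3 were used for the rest.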

Additional observations from a re-analysis of the deposited data

Results flagged for a closer look

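Each group of log2 CPM values of a member was examined for a mouse far from the others of its group, by comparing its gap to the nearest mouse with the whole range of the group (Dixon's test at the 95% level). Of 20 groups, 5 held such a value, where chance gives about 1 in 20 groups. Igf1 was 5.13 log2 CPM in CTRL 3, against 3.64 to 4.09 in the other 6 CTRL mice, and Igfbp4 was 5.69 in CTRL 3, against 6.20 to 6.51. Igfbp4 was 6.88 log2 CPM in DPAn-6 3, against 6.52 to 6.61 in the other 4 DPAn-6 mice, and Igfbp5 was 8.38 in DPAn-6 3, against 8.63 to 8.70. Igf2r was 5.86 log2 CPM in DPAn-6 2, against 5.73 to 5.76. Values of CTRL 3 and DPAn-6 3 thus account for 4 of the 5. CTRL 3 also had 0.279% of its counts on Gm42418, the lowest of the CTRL group, where the others had 0.868% to 3.92%. The DPAn-6 mice had 0.401% to 0.810%, so they lay below every CTRL mouse other than CTRL 3. In CTRL 3 the sum of thalamus markers was 117 CPM, the highest of the 12 libraries. No member passed the test of an interaction between group and age.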

How the results depend on the processing

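The number of genes with an adjusted p below 0.05 was 243, and it was 696 by DESeq2, 79 with the replicate block, 17 with Ttr as covariate, 0 with the leptomeningeal list mean as covariate (487 at an unadjusted p below 0.05 by edgeR), 9 in the 14-month mice only, 541 without CTRL 2, 3 and 5, and 64 (without DPAn-6 3) to 953 (without CTRL 3) with 1 mouse left out. The number of members called lower was 1, and it was 2 by DESeq2, 0 with library totals, a minimum of 1 CPM in 5 mice, either of these covariates, the 14-month mice only or without CTRL 2, 3 and 5, and 0 to 2 with 1 mouse left out. No member was called higher in any of the 24 alternatives. Igf2 kept its direction in 24 of 24 and its call in 9. Its log2 fold change was −0.99 with library totals, −1.02 with a minimum of 1 CPM, −0.44 with Ttr, −0.14 with the leptomeningeal mean, −0.91 at 14 months, −0.60 without CTRL 2, 3 and 5, and −1.21 to −0.89 with 1 mouse left out, with adjusted p values from 0.00161 to 1.00 over all alternatives. Igf1r was called by DESeq2 (−0.25) and without CTRL 3 (−0.22), within −0.29 to −0.20 over the left-out mice. The causes of these shifts were not tested.

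Directions turned for members without a call. Igf1 was 0.49 with the leptomeningeal mean, 0.029 without CTRL 2, 3 and 5, and −0.31 to 0.074 with 1 mouse left out, and its difference of mean log2 CPM was 0.036 without CTRL 2, 3 and 5 and 0.079 without CTRL 3. With Ttr and with the leptomeningeal mean, Igfbp2 was 0.033 and 0.092 and Igfbp3 0.032 and 0.0066, and Igfbp5 was 0.062 with the latter. Igfbp7 was 0.010 by limma-voom, 0.015 with library totals, 0.011 with no filter, 0.074 with Ttr, 0.010 with the replicate block and −0.047 to 0.077 with 1 mouse left out. The difference of mean log2 CPM was 0.0077 for Igfbp2 at 14 months, 0.0097 for Igfbp3 without CTRL 2, 3 and 5, and −0.024 to 0.10 for Igfbp7 with 1 mouse left out. The age term ranged over the left-out mice from −0.033 to 0.040 for Igf1r, −0.12 to 0.031 for Igfbp6 and −0.11 to 0.0014 for Igfbp7.

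No pairing by replicate number was seen, since correlations of same-numbered mice were −0.12 to 0.22 and 0 of 5 DPAn-6 mice correlated best with the CTRL mouse of its own number. So few pairs cannot exclude a pairing or a processing block, and other ways of pairing were not tried. With the replicate block Igf2 was −1.20 (edgeR adjusted p = 0.0392). Igfbp3 and Igf1 had the fewest counts, 127 to 268 and 198 to 537 per mouse, and what depth adds to their errors was not tested.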
